A study of Mus musculus with 38 samples.

Results

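Halo-HSF2 signal was compared between mitotic (M) and asynchronous (A) cells at 2135 distinct HSF2 sites. The sites are the intervals at which endogenous HSF2 was called in either phase, taken from a table of 2141 rows in which 6 rows repeat an interval and were counted once. A site entered if the anti-HA signal was above 0 in both phases, which held for all 2135. The measurements are CUT&Tag, in which an antibody bound to a chromatin protein recruits the transposase Tn5, so that the nearby DNA is cut and tagged for sequencing. Of the 38 libraries of the series, 4 belong to this comparison, 2 from each phase. All came from JM8 mouse embryonic stem cells with an HSF2 knockout, made with CRISPR and picked as clones, into which overexpressed full-length HSF2 was stably integrated with an N-terminal tag of HA, 3x Flag and HaloTag (Halo-HSF2). Mitotic cells were collected by shake-off after 50 ng/ml nocodazole for 6 h, and asynchronous cells had no such treatment. Both phases therefore lack endogenous HSF2, and the level of the construct is not the native one. The table holds no expression values, so the cell type could not be checked against marker genes.

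HSF2 is a member of the heat shock transcription factor family, whose members bind DNA as trimers at arrays of inverted GAA units called heat shock elements. HSF1 is the member that drives the response to heat and misfolded protein, and HSF2 is known for roles in development and the germ line and for binding at heat shock genes in cycling cells. Most transcription stops in mitosis and many factors leave the condensed chromosomes, while some keep part of their sites. The comparison asks how the anti-HA signal at these sites differs between mitotic and asynchronous cells. How much of that signal is site-specific binding of the tagged HSF2 was not tested.

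Each value below is the mean over a site of the coverage per base, which the authors scaled by the number of reads from added Drosophila S2 cells and averaged over the 2 libraries of a phase. Replicates are not separate in these values, so the error between libraries is not known for any difference and none was tested. The table gives no read totals, and those that the study lists per library were not used here, so no precision is derived from depth. An interval given for a median over sites (95%, from order statistics) or for a share of sites (Wilson) describes only the spread over sites, not that from one culture to another. The size of a change is given as log2 M/A, the log2 of mitotic over asynchronous signal, with no pseudocount. The sites are those of the endogenous protein, so sites that only the tagged protein might occupy are not included. Libraries with IgG, of knockout cells and of the HA control were not analysed here, and no background from them was subtracted.

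Heat shock elements were searched as GAA, any 2 bases, TTC, any 2 bases and GAA, on both strands with overlaps allowed, in the GRCm38 sequence of the 2131 sites on assembled chromosomes. At least 1 element was found at 300 sites, or 14.1% (12.7% to 15.6%). The share was 25.7% among the 575 sites with no start of a coding gene within 1 kb and 9.77% among the 1556 sites with one. In windows of the same width 2 kb to either side, the share was 3.98% to 5.04%. Of the 18 sites (0.843% of all) with at least 2-fold lower mitotic signal, 9 held an element, and 8 of these 9 are shown so that they can be set beside elements at heat shock genes. Each is named by the nearest transcript start, with the position of the element in mm10, and the 13 bases of the element are in capitals.
Gm40331, chr5:126910310-126910322, plus strand, between genes: gtttgggaGAAGGTTCTAGAAtcttaaga
Lin28b, chr10:45473708-45473720, minus strand, intron of Lin28b: tagatttaGAACATTCTGGAAtctcagag
Lmtk3, chr7:45779099-45779111, minus strand, intron of Sult2b1: gttctgtgGAAGCTTCTGGAAagcagagc
Parp16, chr9:65195297-65195309, minus strand, upstream of Parp16: caaacacaGAATGTTCCAGAAaggaccgg
Gm36328, chr6:134753890-134753902, plus strand, intron of Dusp16: aaagtctaGAAGATTCTGGAAgcacttgt
Tead4, chr6:128282800-128282812, plus strand, intron of Tead4: tccggcagGAAGATTCCAGAAttctccaa
Ankrd6, chr4:32941284-32941296, plus strand, intron of Ankrd6: ctgttagaGAACCTTCCAGAAcgaagttg
Tmem132b, chr5:125524539-125524551, plus strand, between genes: acttactaGAATATTCCAGAAtggcactc

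Elements of the same form stand at heat shock genes whose signal was kept or was higher in mitosis, and a set of these is shown for comparison with the lines above. The set was chosen for that direction, and not every chaperone site with an element had it. The sites at Hspa9 and Tcp1 hold 1 element each and had lower mitotic signal, with log2 M/A of −0.20 and −0.13. Hsp90aa1 encodes an HSP90 chaperone, Hspa8 the constitutive HSP70, Hsph1 an HSP110 and Hspb1 the small heat shock protein HSP27. Dazl, an RNA-binding protein gene of germ cells, is added as the site with an element at a coding start that had the highest log2 M/A. Dazl and the element at Hspb1 were picked after their values were seen.
Hsp90aa1, chr12:110696387-110696399, plus strand, exon of Hsp90aa1: agcctccgGAACCTTCCGGAAgaaccctc
Hspa8, chr9:40801063-40801075, plus strand, exon of Hspa8: gcgagcgtGAAAGTTCCAGAAcgccgcgg
Hspa8, chr9:40801221-40801233, minus strand, exon of Hspa8: ctgtcttaGAACCTTCCAGAAgggtgccg
Hsph1, chr5:149636288-149636300, plus strand, exon of Hsph1: actgaggaGAACTTTCCAGAAtctgcagc
Hspb1, chr5:135888909-135888921, plus strand, intron of Hspb1: tcagaaggGAAGTTTCTGGAAagttttaa
Dazl, chr17:50294363-50294375, minus strand, upstream of Dazl: ggccttgaGAATGTTCTAGAAttctctca

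Halo-HSF2 signal was higher in mitotic cells at most sites. The median signal over the 2135 sites was 1.36 in A and 2.02 in M. The median log2 M/A was 0.57 (0.53 to 0.59), which is a 1.48-fold higher mitotic signal. M was above A at 1842 sites, 86.3% of all (84.8% to 87.7%), and below A at 293, or 13.7%. At 422 sites (19.8%) M was at least 2-fold higher, and at 18 sites (0.843%) at least 2-fold lower. The quartiles of log2 M/A were 0.22 and 0.91. The level at a site in A carried over to M, with an R2 of 0.739 between the log2 signals, which describes sites that share the same libraries. A scaling error common to a phase would move all sites together. If the weakest quartile is set to no change, 0.69 is taken off each log2 M/A, the median becomes −0.13 and M is above A at 39.7% of sites. Differences between the medians of groups of sites do not depend on such a shift. Counts of sites with M above or below A, or past 2-fold, do depend on it, and they are to be read against the shares of all sites.

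**Figure D1:**
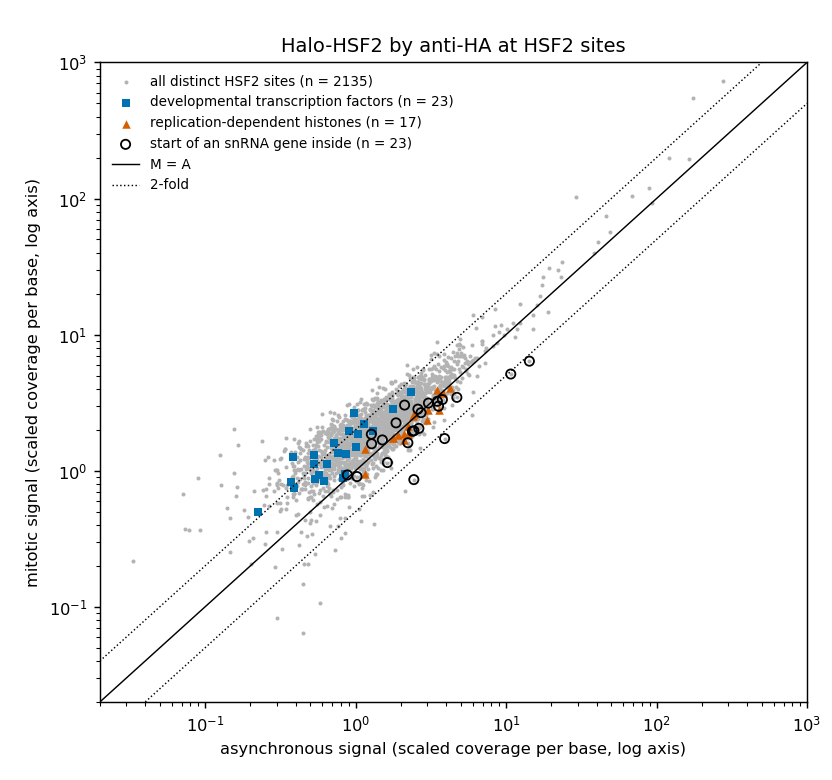
Mitotic against asynchronous anti-HA signal of Halo-HSF2 (scaled coverage per base, log axes), 1 grey point for each of the 2135 sites, with a solid line at equal signal and dotted lines at 2-fold. Most points lie above the solid line, as do all 23 sites of developmental transcription factors (squares), while 13 of 17 histone sites (triangles) and 15 of 23 sites with the start of a small nuclear RNA gene (circles) lie below it.

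Genes of the HSP70 and HSP90 families and their co-chaperones ranged from somewhat lower to more than 2-fold higher mitotic signal. The site over Hspa8 (chromosome 9, 40797528 to 40808044) had a signal of 2.19 in A and 2.25 in M, and its log2 M/A was 0.040. The site over Hsp90aa1 (chromosome 12, 110693602 to 110705488) had 1.16 and 1.45, which gives 0.32. Both lie below the median of all sites. Hsp90ab1, the constitutive HSP90 gene, had 2.27 in A and 3.18 in M. The HSP70 and HSP110 genes had 6 sites, with a median log2 M/A of 0.44, M above A at 5 and at least 2-fold higher at 2. Over all sites M was above A at 86.3% and at least 2-fold higher at 19.8%. The stress-inducible HSP70 genes had 0.502 in A and 1.00 in M at Hspa1b, and 0.615 and 0.868 at the site of Hspa1a and Hspa1l. Hspa1a and Hspa1b are near-identical copies, so their values are uncertain, and they are named here after their values were seen. The exception was Hspa9, the mitochondrial HSP70 gene, at 1.62 in A and 1.41 in M. Hspa4l, of the HSP110 family, had the largest value of this list, with 0.603 in A, 2.10 in M and a log2 ratio of 1.80. HSP90 genes and their co-chaperones had 10 sites, with a median of 0.41 and M above A at 8, beside 86.3% of all sites. Among them, Ahsa1, an activator of the HSP90 ATPase, had 1.53 in A and 1.17 in M, and Fkbp4, an HSP90-binding immunophilin, had 0.592 and 1.26.

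The HSP40 and BAG co-chaperone genes had the highest median of the chaperone lists. All 8 of their sites had M above A, as did 86.3% of all sites, and 5 of the 8 were at least 2-fold higher, as were 19.8% of all sites. Their median was 1.03 (0.34 to 1.44), an interval that contains the 0.57 of all sites. Dnajc16, with the highest value, had 0.691 in A and 1.88 in M. Dnajb11, an HSP40 of the endoplasmic reticulum, had 1.33 and 3.34, and Dnajc13, which acts on endosomes, had 1.05 and 2.59. Dnajb1, the HSP40 partner of HSP70 in the stress response, had the lowest log2 M/A of the list at 0.34. The chaperonin genes lay at the other end, with 6 sites, a median of 0.11 and M above A at 3, beside 86.3% of all sites. Cct3 and Cct7, subunits of the cytosolic chaperonin TRiC, had lower signal in M, at 1.44 against 1.78 and at 1.62 against 2.10. The site between the divergent genes Hspd1 and Hspe1, which encode HSP60 and HSP10, had 1.20 in A and 1.52 in M. Small heat shock proteins and other heat shock genes had 6 sites, all with M above A (beside 86.3% of all sites), and a median of 0.53. They included Hsf1 itself, with 0.803 in A and 2.20 in M, and Serpinh1, the collagen chaperone HSP47, with 0.569 and 0.686.

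**Figure D2:**
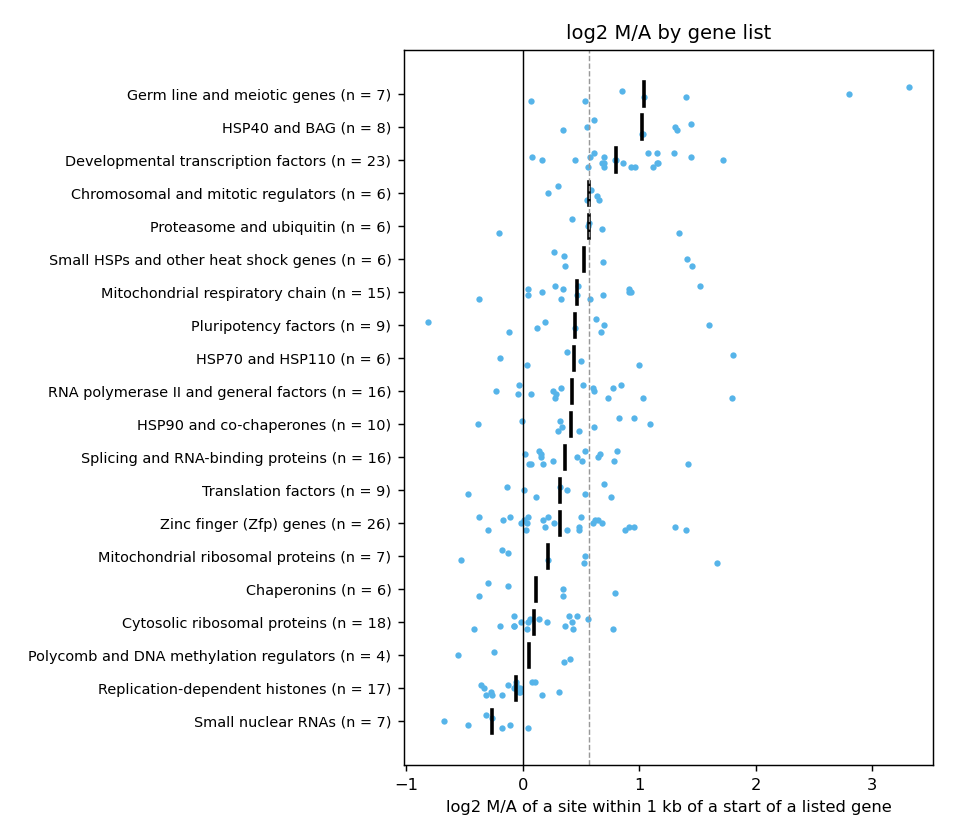
log2 M/A of every site (blue point) within 1 kb of a start of a listed gene, with a black bar at the median of each list and a dashed line at 0.57, the median of all 2135 sites. Germ line genes, HSP40 and BAG genes and developmental transcription factors have the highest medians. Only the histone list and the small nuclear RNA list, which includes U3 copies, have a median below 0.

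Developmental transcription factor genes had M above A at all 23 of their sites, which is to be read beside 86.3% of all sites. Their median log2 M/A was 0.80, and 8 of 23 sites were at least 2-fold higher, where 19.8% of all sites were. The signals themselves were low, with medians of 0.769 in A and 1.29 in M. Foxc2, a forkhead factor of mesoderm, had 0.385 and 1.27, the largest log2 M/A of the list at 1.72. Irx5 and Sox12 had the highest signals, at 2.33 and 3.78 and at 1.76 and 2.83. Hoxb6 had the smallest value, at 0.829 in A and 0.878 in M. The other signals over the same sites went elsewhere: the median log2 M/A was −2.47 for endogenous HSF2 in wild type cells, −0.21 for Halo-HSF2 by anti-HSF2 and 0.040 for Halo-H2DBD, the DNA-binding domain alone. These sites had a median GC content of 59.5%, against 55.1% for all sites.

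Germ line and meiotic genes had 7 sites with M above A at all 7, beside 86.3% of all sites, and a median of 1.04 (0.067 to 3.32). Slc25a31, a mitochondrial ADP/ATP carrier of the testis, had 0.089 in A and 0.890 in M, a ratio of 3.32 on the log2 scale. Dazl had 0.238 and 1.66, at 2.80. These 2 values rest on very low asynchronous signal. Stag3, the meiotic cohesin subunit, had more signal in both phases, with 1.71 in A and 4.51 in M. Tex14, needed for the bridges between germ cells, had 3.71 and 3.89. The anti-HSF2 signal of Halo-HSF2 was higher in M at all 7 sites, beside 1690 of 2121 over all sites, with a median log2 M/A of 1.20. Halo-H2DBD was higher at 5, beside 1251 of 2134, with a median of 0.25. Endogenous HSF2 in wild type cells was higher in M at only 4 of the 7, beside 1544 of 2135. Its median there was 0.096, where its median over all sites was 0.49.

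Genes of pluripotency had M above A at 7 of 9 sites, beside 86.3% of all sites. Pou5f1, which encodes OCT4, had 2.00 in A and 1.84 in M over its start (chromosome 17, 35503376 to 35506989). Klf5 had 1.79 and 2.77, and Klf2 had 2.28 and 2.60. Otx2, a factor of the primed state, had a pair of neighbouring sites with opposite values. The site that contains its start had 0.674 in A and 2.04 in M, and the site 309 bp from a start had 1.14 and 0.651. Over the 9 sites of this list the median was 0.45. The 4 sites at Polycomb and DNA methylation regulators had a median of 0.055, with M above A at Suz12 and Jarid2 and below it at Cbx7 and Trim28. Over all sites M was below A at 13.7%.

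Lists of genes for protein synthesis, splicing and respiration had medians below that of all sites. The 18 sites at cytosolic ribosomal protein genes had a median log2 M/A of 0.099, with M above A at 12 and none past 2-fold. Over all sites M was above A at 86.3% and at least 2-fold higher at 19.8%. Rps19 had 3.70 in A and 4.28 in M, Rpl7 had 1.68 and 2.87, and Rps13 had 1.53 and 1.14. Translation factors had 9 sites and a median of 0.32, with Eif4a1, an RNA helicase, at 5.94 and 6.44. Splicing and RNA-binding protein genes had M above A at all 16 sites, as did 86.3% of all sites, with a median of 0.36. Hnrnpa1 was the strongest of them, at 9.76 in A and 9.90 in M. Sites at zinc finger genes had a median of 0.32 over 26 sites, with Zfp524 at 12.4 and 12.2. Mitochondrial ribosomal proteins had a median of 0.22 over 7 sites, genes of RNA polymerase II and the general factors 0.42 over 16, and the respiratory chain 0.47 over 15. Proteasome and ubiquitin genes and chromosomal and mitotic regulators, with 6 sites each, both had a median of 0.57. Cenpf, a kinetochore protein, and Fzr1, the activator of the anaphase-promoting complex in late mitosis and G1, had 2.35 and 3.90 in M against 1.49 and 2.50 in A.

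The histone list and the list named small nuclear RNAs, which includes copies of the small nucleolar RNA U3, were the lists with lower mitotic signal. Replication-dependent histone genes, which are transcribed in S phase, had 17 sites with M below A at 13, where 13.7% of all sites had M below A. Their median was −0.060, which is −0.63 relative to that of all sites. The site over Hist1h2ap, Hist1h2br and Hist1h4n had 3.57 in A and 2.78 in M, the lowest log2 M/A of the list at −0.36. Hist1h3e had 3.79 and 3.73, and Hist1h2bb with Hist1h3c had 1.16 and 1.43, the highest value at 0.31. No histone site passed 2-fold in either direction. Over the same 17 sites the median log2 M/A was 0.38 for anti-HSF2, −0.21 for Halo-H2DBD and 0.34 for endogenous HSF2.

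At 7 sites near genes listed by symbol as small nuclear RNAs, the median was −0.26 and M was below A at 6. Of these sites, 4 lie at copies of the U3 gene family Rnu3b, and U3 is a small nucleolar RNA. Rnu3b4 had the highest signal, with 6.05 in A and 3.79 in M. Rnu1b6, a copy of the U1 gene, was the exception with 3.05 and 3.14. After these values were seen, another group was formed from the 23 sites that contain the start of a gene with the snRNA biotype in GENCODE. The sites at Rnu3b1, Rnu12, Rnu1b6 and Rnu7 are in both groups. The group of 23 is therefore not separate from the 7, and its counts give no independent support to theirs. Many small nuclear RNAs are core parts of the spliceosome, and their genes have their own class of promoters. The median signal of these sites was 2.44 in A and 2.05 in M, and the median log2 M/A was −0.18 (−0.45 to 0.079). M was below A at 15 of 23, where 13.7% of all sites were, and at least 2-fold lower at 4, where 0.843% of all sites were. No site was at least 2-fold higher, where 19.8% of all sites were. The 4 sites were at Gm22634 (14.3 in A, 6.38 in M), Gm22317 (10.7 and 5.14) and Gm23444 (3.91 and 1.72) and the Parp16 site, which also contains the start of Gm25313 (2.44 and 0.861). Halo-H2DBD had a median of −0.68 at the same sites, where its median over all sites was 0.098, and had 18.7 in A and 4.77 in M at Gm22634. For anti-HSF2 the median was 0.14 and for endogenous HSF2 −0.091. Small nuclear RNA, U3 and histone genes have near-identical copies, so reads may be shared between their loci, and the values of single copies are uncertain. The median GC content was 48.9% at the 23 sites and 49.1% at the histone sites, which is in the lowest quartile of all sites.

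The largest gains in mitotic signal among sites with at least the median mean signal were spread over genes of different roles. The mean of A and M had to be at least 1.70 for this ranking, which 1068 sites met. Rnf34 and Fbxo30 lay just inside at 1.70, with log2 M/A of 0.10 and 0.30, and Tent4a and Phyhipl just outside at 1.69, with 0.47 and 1.89. The top site lay over the pseudogenes Gm11408 and Gm11410 (chromosome 4, 80002409 to 80004287), with 29.2 in A and 103.3 in M, or 1.82 on the log2 scale. Pseudogenes can share reads with their parent genes, so this value is uncertain. The coding genes with a start inside the site were Palm3 (0.884 and 3.02), Ttc3 (0.905 and 3.07), Rxylt1 (1.38 and 4.69), Itprid2 (1.09 and 3.34), Asna1 (1.02 and 3.11) and Bptf (1.29 and 3.92). Ttc3 is a ubiquitin ligase and shares its start region with Pigp, Rxylt1 acts in the glycosylation of dystroglycan, Asna1 inserts tail-anchored proteins into the endoplasmic reticulum, and Bptf is a subunit of the NURF chromatin remodeler. At Ttc3, Rxylt1, Itprid2, Asna1 and Bptf the anti-HSF2 signal of Halo-HSF2 was also higher in M, with log2 M/A of 0.64 to 1.19. At Palm3 it was −0.44 and at the Gm11408 site −0.20. Over all sites the anti-HSF2 signal was higher in M at 1690 of 2121, so most sites would be higher by it in any case. Halo-H2DBD was −1.19 at Asna1, −0.23 at Bptf and −0.17 at Palm3, and 0.25 to 1.12 at Itprid2, Ttc3 and Rxylt1. The others of the 10 were intergenic sites 16836 bp from Gm43393 and 52061 bp from Gm29277 on chromosome Y, where 85.4% of the bases are repeats, and a site in an intron of Sipa1l3.

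Among the same 1068 sites, the 10 with the lowest log2 M/A ranged from −1.21 to −0.65. The first lay in an exon of Pigl, 10270 bp from the start of Gm12949, with 5.94 in A and 2.57 in M. The next 3 were the small nuclear RNA genes Gm23444, Gm22634 and Gm22317, and Rnu3b4 was also among the 10. The coding genes were Map3k12 (2.66 in A and 1.46 in M), which encodes a neuronal stress kinase, Mga (2.30 and 1.42), a partner of MAX, Tsc1 (2.22 and 1.41), an inhibitor of mTORC1, and Ccdc12 (3.29 and 2.10). The site nearest to Rny3, a Y RNA gene 21919 bp away, was 22573 bp wide, the widest of all sites, with 3.86 and 2.37. Mga held 3 heat shock elements, and no site held more. The anti-HSF2 signal differed at these genes, with a log2 M/A of 1.26 at Tsc1, 0.24 at Mga and −0.71 at Ccdc12.

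Over all sites, whatever their level, 18 had at least 2-fold lower signal in M. They were mostly weak sites away from coding starts, several of them inside genes. Of the 18, 12 were in the weakest quartile of signal and 3 had a coding start within 1 kb, where 72.9% of all sites had one. The 3 were Parp16, Fn1, which encodes fibronectin (1.08 in A and 0.428 in M), and Rad54b, a recombination factor (0.795 and 0.319). An element was found at 9 of the 18, against 14.1% of all sites, and 8 of these 9 had no coding start within 1 kb. The lowest log2 M/A was −2.80, at the site with the first sequence shown above, 57274 bp from Gm40331, with 0.445 in A and 0.064 in M. In an intron of Lin28b, the gene of an RNA-binding protein that blocks let-7, the signal was 0.583 and 0.108. The site in Tead4, a factor of the trophectoderm, had 0.856 and 0.349. The anti-HSF2 signal of Halo-HSF2 had a value at 17 of the 18 sites and was lower in M at 13, beside 431 of 2121 over all sites. Halo-H2DBD was lower at 12 of 18, beside 883 of 2134, and endogenous HSF2 at 13 of 18, beside 591 of 2135. At 7 of the 9 element sites, M and A were both below 1 in scaled coverage.

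**Figure D3:**
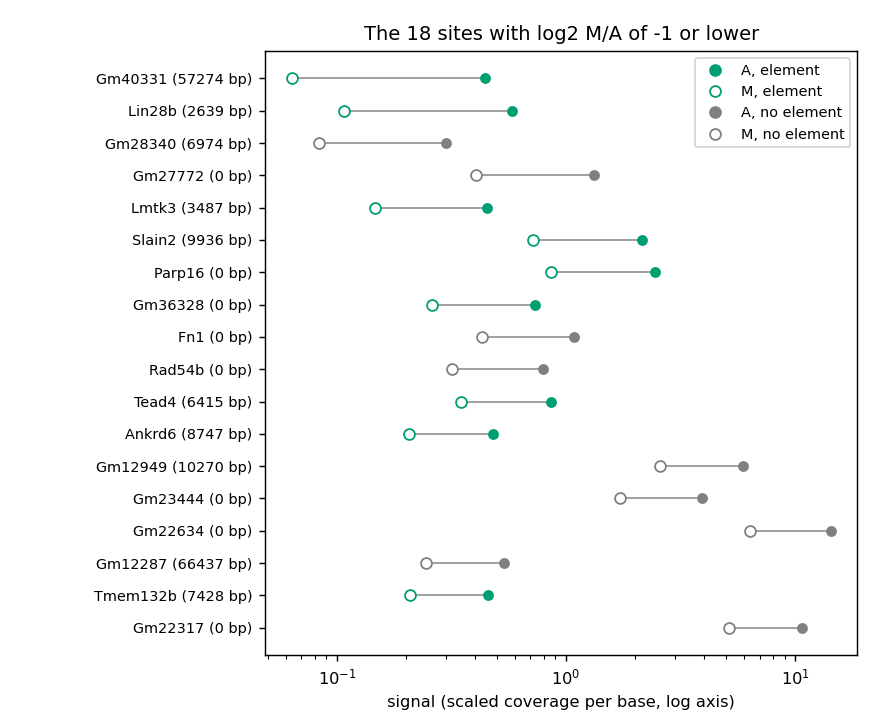
Asynchronous (filled) and mitotic (open) anti-HA signal, on a log axis in scaled coverage per base, at the 18 sites with log2 M/A of −1 or lower, each named by its nearest transcript start and the distance to it, and ordered from the lowest log2 M/A at the top. The 9 sites with a heat shock element (green) include Gm40331 and Lin28b, the first pair of rows, while the small nuclear RNA sites Gm22634 and Gm22317, with the highest signals, hold none (grey).

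Sites with an element had a slightly lower median ratio, with intervals that overlap. Over the 300 sites with an element the median log2 M/A was 0.51 (0.44 to 0.65), and over the 1831 without it was 0.57 (0.54 to 0.59). M was at least 2-fold lower at 3.00% of element sites and at least 2-fold higher at 22.7%, against 0.492% and 19.3% of the others. Element sites were weaker, with a median of 0.894 in A against 1.46, and in the weakest quartile of all sites 29.6% were at least 2-fold higher. Taken within quartiles of signal, the element sites stood at −0.10 relative to all sites, where they stood at −0.055 without this step. With 1 mismatch allowed in the element they stood at 0.0032, so the lower median depends on the element rule. With no coding start within 1 kb, the 148 element sites had a median of 0.62, with 8 at least 2-fold lower and 39 at least 2-fold higher. Relative to all sites this class stood at 0.053. It stood at −0.051 within quartiles of signal, at −0.078 with 1 added to both signals and at −0.047 with a reach of 5 kb. The value was 0.028 with 1 mismatch allowed and 0.017 when only a coding start inside the site counted. Beyond the ranking rule, the Sgsh and Gsg1 sites show the upper end of the element sites, chosen after their values were seen. The site nearest to Sgsh, with its element in an intron of Card14, had 0.126 in A and 1.30 in M. The site nearest to Gsg1, with its element in an intron of Fam234b, had 0.071 and 0.674.

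Sites at coding gene starts and elsewhere had close medians. The median log2 M/A was 0.57 over the 1556 sites with a coding start within 1 kb and 0.58 over the 579 without (0.49 to 0.63). M was above A at 88.4% of the former and 80.7% of the latter. Signal was slightly higher at coding starts, with medians of 1.43 in A and 2.11 in M, against 1.11 and 1.64.

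Sites that overlap sites of HSF1 or SOX2 had a smaller mitotic gain. The median log2 M/A was 0.48 (0.44 to 0.53) over the 868 sites that overlap, by at least 1 bp, a site called for HSF1 and 0.61 (0.58 to 0.64) over the 1267 that do not. For the 407 sites that overlap a SOX2 site it was 0.39 (0.34 to 0.45), against 0.59 (0.57 to 0.62) for the 1728 others. The 243 sites with both had 0.38, and the 1103 with neither 0.62. Strength and base composition moved with these classes. Sites with HSF1 had a median of 1.72 in A against 1.22, and their GC content was 53.2% against 56.1%. Sites with SOX2 had a GC content of 52.0% against 55.8%. Taken within quartiles of signal, the SOX2 class stood at −0.17 relative to all sites and the HSF1 class at −0.042. The part of GC content in these differences was not tested.

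The median log2 M/A was higher at GC-rich sites, and on the scale without a pseudocount it was also higher at weak sites. From the weakest to the strongest quartile of mean signal the median log2 M/A was 0.69, 0.67, 0.52 and 0.40. The mean contains the same 2 signals as the ratio, so quartiles of Halo-H2DBD signal were also used. The weakest and the strongest of these lay at 0.16 and −0.18 relative to the median of all sites, and those of endogenous HSF2 signal at 0.055 and −0.070. With 1 added to both signals the direction turned at the weak end, and the weakest and the strongest quartile of anti-HA signal lay at −0.047 and −0.025. From the lowest to the highest quartile of GC content the medians were 0.44, 0.54, 0.58 and 0.66, and M was above A at 76.5% of sites in the first and at 94.4% in the last. Of the 18 sites with at least 2-fold lower signal, 12 were in the lowest GC quartile and none in the highest. GC content ran in the same direction in the other signals, with medians of 0.54 and 0.78 in the first and last quartile for anti-HSF2, of −0.050 and 0.18 for Halo-H2DBD, and of 0.22 and 0.67 for endogenous HSF2. Signal strength did not run alike, since endogenous HSF2 went from 0.062 in the weakest to 0.68 in the strongest quartile of anti-HA signal. The share of repeats was less marked, with medians of 0.58 in the quartile with the fewest and 0.48 in that with the most, and site width showed no order (0.53, 0.62, 0.58 and 0.53).

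**Figure D4:**
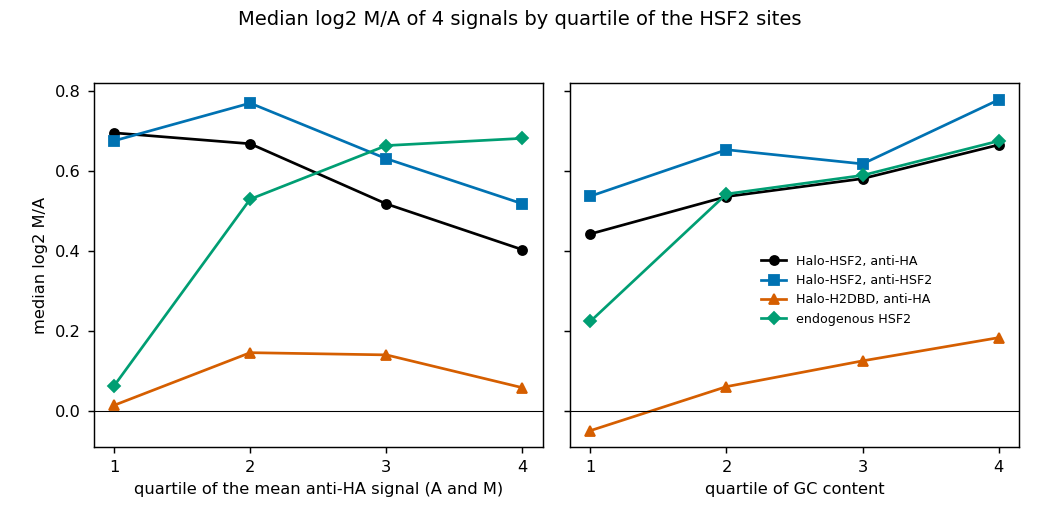
Median log2 M/A of Halo-HSF2 by anti-HA (black) and of 3 other signals over the same sites, by quartile of mean anti-HA signal (left) and of GC content (right), from lowest to highest. The anti-HA medians run from 0.69 down to 0.40 with signal and from 0.44 up to 0.66 with GC content, and the GC panel shows the same direction in Halo-H2DBD at a lower level.

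A few strong sites held a sizeable share of the summed signal, though most of it lay elsewhere. The 10 sites with the highest asynchronous signal held 22.6% of the summed signal in A, and the 10 highest in M held 29.3% of that in M, with 9 sites in both. Without the 10 highest in A the ratio of summed M to summed A changed from 1.52 to 1.41. The strongest site was 297 bp wide, on chromosome 10 from 85025974 to 85026270, 76225 bp from the nearest start (Fhl4), with 276.6 in A and 725.5 in M. The next lay 16836 bp from Gm43393 on chromosome 5, with 175.4 and 550.9. The others lay 37767 bp from AC164106.1 in an intron of Kctd16 (164.9 and 195.7), 1452 bp from Gm10801 (121.9 and 197.1), 18210 bp from Gm12221 (93.6 and 93.5) and 1728 bp from Aida, in its intron (89.2 and 120.1). None of the 10 contained a transcript start or a heat shock element, and at 3 of them more than 50% of the bases were soft-masked repeats. Halo-H2DBD also had high signal there, with 275.4 in A and 492.5 in M at the site nearest to Fhl4, and endogenous HSF2 had 142.4 and 75.4. At the site near Gm10801, Halo-H2DBD had 508.6 in A and endogenous HSF2 127.0. No background was subtracted, so whether the signal at these strongest sites reflects binding of Halo-HSF2 was not tested.

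**Figure D5:**
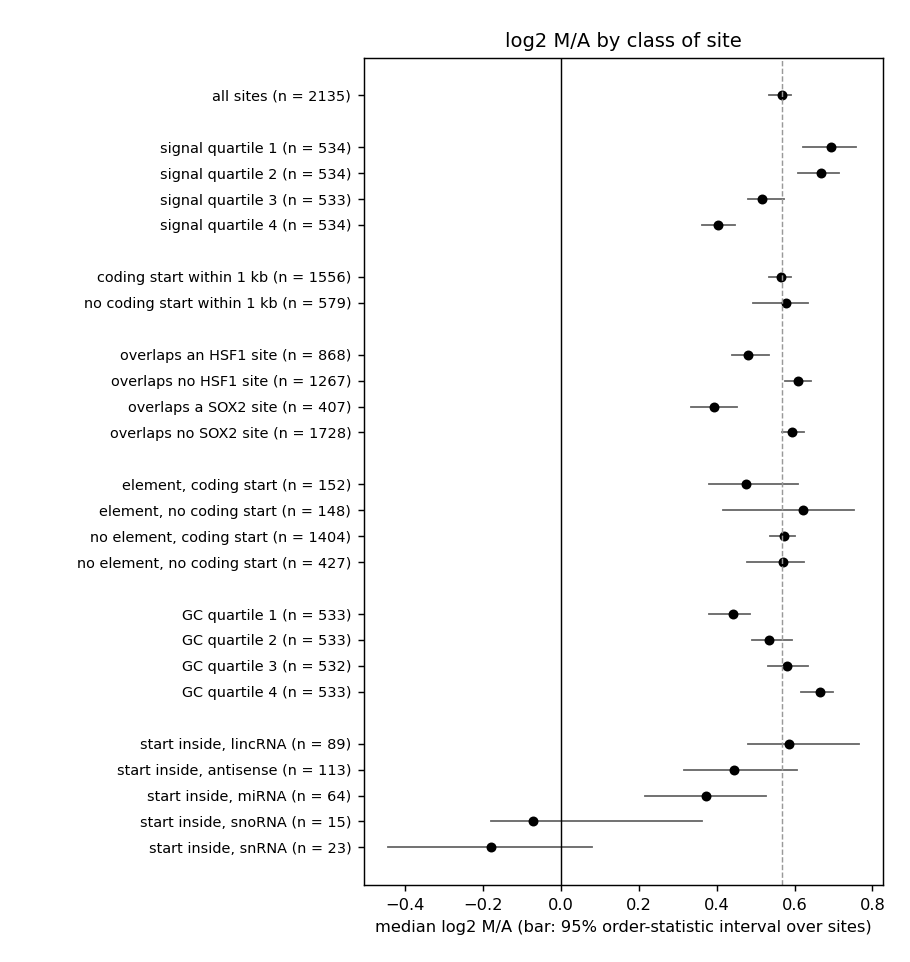
Median log2 M/A (point) of classes of sites, with the 95% order-statistic interval over sites (bar), a solid line at 0 and a dashed line at 0.57, the median of all sites. The intervals with and without a coding start overlap, the signal quartiles step down from 0.69 to 0.40, and sites with the start of a small nuclear RNA gene have the lowest median, at −0.18.

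The median log2 M/A of Halo-HSF2 by anti-HA lay above that of the DNA-binding domain alone and near that of the same protein by anti-HSF2. Over the sites above 0 in both phases, the median log2 M/A was 0.098 for Halo-H2DBD (2134 sites), 0.64 for Halo-HSF2 by anti-HSF2 (2121 sites) and 0.49 for endogenous HSF2 in wild type cells (2135 sites). The 4 signals come from different libraries and each was scaled on its own, so the medians stand side by side and their differences were not tested. The level of the anti-HA signal across sites was near that of Halo-H2DBD, with a Pearson's r of 0.89 in A and 0.87 in M between log2 signals, and less like that of endogenous HSF2, with 0.13 and 0.39. At Hsp90aa1, endogenous HSF2 had 75.7 in A and 60.3 in M, where Halo-HSF2 had 1.16 and 1.45. By anti-HA signal in A this site ranked 1254 of 2135, below the median of 1.36. Site by site, the values of log2 M/A were weakly related. Pearson's r across sites was 0.11 with anti-HSF2, 0.18 with Halo-H2DBD and −0.025 with endogenous HSF2, and Spearman's rho was 0.12, 0.20 and 0.0017. These describe averaged tracks whose sites share libraries and base composition. At 418 sites M was at least 2-fold higher by anti-HA and anti-HSF2 had a value. Of these, 181 (43.3%) were also at least 2-fold higher by anti-HSF2, a larger share than the 710 of 2121 over all sites. The 181 are 25.5% of the 710. By Halo-H2DBD 33 of 422 sites (7.82%) were also at least 2-fold higher, a larger share than the 85 of 2134 over all sites. The 33 are 38.8% of the 85. By endogenous HSF2 117 of 422 sites (27.7%) were, a smaller share than the 643 of 2135 over all sites. The 117 are 18.2% of the 643. M was above A in both at 1483 of 2121 sites for the pair of antibodies, and at 82 it was below A in both. At 349 it was above A only by anti-HA and at 207 only by anti-HSF2. By itself, anti-HA had M above A at 86.3% of all sites, and anti-HSF2 at 1690 of 2121. Shares this high place most sites above A in both, whether or not the ratios are related. At the 300 element sites the median log2 M/A was 0.0040 for endogenous HSF2, 0.46 for anti-HSF2 and −0.063 for Halo-H2DBD, beside 0.51 by anti-HA.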

How the data were processed

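CUT&Tag was done by the authors on 2 libraries of each phase. Per the study's methods, Bowtie2 aligned the reads to mm10, duplicate reads from PCR stayed in, and the authors scaled coverage by reads of added Drosophila S2 cells mapped to dm6. The deposited values are signal, the mean scaled coverage per base of a site, averaged by the authors over libraries. FastQC, deepTools and bedtools are also listed in the submitters' processing notes. The methods describe setting the asynchronous sample to unity, but whether this was applied to these tracks is unclear. Scaling values of the 2 libraries of a condition were unequal, most so in mitotic Halo-HSF2. For the site list, the authors ran the peak caller SEACR on endogenous HSF2 with IgG as control and combined both phases.

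From these values log2 M/A was computed per distinct site with Python 3.11.15, numpy 2.4.6, pandas 2.3.3 and scipy 1.17.1, and plotted with matplotlib 3.10.9. With 1 averaged column per phase no test was possible, and the deposited table gives no depth. Read totals that the study lists per library were not used here. Nearest starts came from GENCODE, and sequence from the GRCm38 reference, read with pysam 0.24.0, for 2131 sites, while 4 had none. Overlap with an HSF1 or SOX2 site needed at least 1 bp. A site belongs to a gene list if it lies within 1 kb of a start of a listed gene. Genes were named by a rule: the 10 highest and 10 lowest log2 M/A among sites with at least the median mean signal, the 10 highest signals in each phase, up to 4 genes per list (highest mean signal, highest and lowest log2 M/A), and Hsp90aa1, Hspa8 and Pou5f1. Other named genes were chosen after their values were seen. The rule, members and lists were chosen with earlier results of these data known. The class of sites with a small nuclear RNA start and the comparison with endogenous HSF2 were added after the data were seen. The calculations were tested on simulated data. Alternatives were 0.1 or 1 added to the signals, a mean signal of at least 1, the strongest quartile, all rows, merged intervals, centring on the weakest quartile, summed signal, 5 kb reach, other quartiles and another element rule. The element of 1 of the 9 sites is not reported here.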

Additional observations from a re-analysis of the deposited data

How the results depend on the processing

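Of 109 alternative values for 39 results, 83 were counted as the same, 23 as moved and 3 as reversed. For medians the same meant within the interval over sites, and for counts within 1.5 times. No interval over sites is given for R2 or Pearson's r. Not every change of sign was counted as reversed. Pearson's r with endogenous HSF2 went from −0.025 to 0.026 with 1 added and was counted as moved. Some small class differences, such as element sites without a coding start, changed sign and were counted as the same. The median log2 M/A of 0.57 became 0.53 with 0.1 added to both signals, 0.34 with 1 added, 0.40 in the strongest quartile, and 0.61 as the log2 of the ratio of summed signal. Centred on the weakest quartile it became −0.13, with M above A at 39.7% of sites, 61 sites at least 2-fold higher and 105 at least 2-fold lower. The 422 sites at least 2-fold higher became 28 with 1 added and 38 in the strongest quartile. The 18 at least 2-fold lower became 1 with 1 added, 6 at a mean signal of at least 1 and 4 in the strongest quartile. The R2 of 0.739 became 0.883 on linear values, 0.697 as squared Spearman and 0.824 with 1 added. With 1 added, medians relative to all sites became −0.098 for SOX2 overlap, −0.080 for the lowest GC quartile, −0.025 for the strongest and −0.047 for the weakest signal quartile, which reversed from 0.13. They became −0.38 for histones, 0.065 for developmental factors and −0.48 for small nuclear RNA starts. By quartiles of endogenous HSF2 signal the strongest quartile stood at −0.070. With 1 added, Pearson's r was 0.26 with Halo-H2DBD and 0.026 with endogenous HSF2. Adding 1 shrinks the ratios of weak sites by construction, and for the other changes the cause was not tested. No paired analysis was possible because the table holds 1 averaged column per phase, and no library could be left out for the same reason.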

Other observations

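Other kinds of transcript start and the chromosomes also differed in the mitotic to asynchronous ratio of Halo-HSF2 by anti-HA. Sites that contain the start of a long intergenic RNA gene had a median log2 M/A of 0.59 over 89 sites, antisense RNA genes 0.44, and microRNA genes 0.37 over 64. The 15 sites with the start of a small nucleolar RNA gene, several of which are U3 copies, had a median of −0.071 with M above A at 5. Over all sites M was above A at 86.3%. By chromosome, the medians were lowest on X, at 0.21 over 18 sites, and on chromosome 7, at 0.37 over 163 sites. They were highest on Y, at 1.05 over 4 sites, and on chromosome 14, at 0.74 over 46. None of these differences was tested.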
